A study of Mus musculus with 6 samples.

Results

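The 10 immediate early genes *Fos*, *Fosb*, *Jun*, *Junb*, *Jund*, *Egr1*, *Ier2*, *Ier3*, *Atf3* and *Zfp36* were followed in lymphatic endothelial cells (LECs) sorted from the mouse dura. They were chosen by name as genes commonly seen to rise while tissue is taken apart into single cells, and all 10 were found among the 55401 gene identifiers of the tables. All 10 were also among the 17459 genes with enough counts to be tested. Their level in these cells, its difference between the treatment groups and its variation between repeats of the experiment are described.

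Both groups were wild-type male C57BL/6J mice given an adeno-associated virus (AAV9) into the cisterna magna at 4 weeks of age. AAV-VEGF-C encoded full-length mouse VEGF-C, the growth factor that drives lymphatic growth through VEGFR-3. AAV-CTRL encoded a fusion of VEGFR-3 ectodomains that does not bind VEGF-C. The promoter in the vectors, and the time between injection and dissection for these libraries, are not given in the sources used here. Each of the 3 libraries per group came from meninges of 10 to 12 pooled mice in 1 of 3 repeats of the experiment, numbered 1 to 3 in both groups. The dura was digested with collagenase D and DNase for 20 min at 37 °C, and CD31+ Podoplanin+ Lyve-1+ CD45- cells were sorted into TRIzol. Libraries of both groups passed through this digestion and no undigested dura was analysed here, so the levels below cannot be set against those of cells left in place.

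Immediate early genes are transcribed within minutes of a stimulus without new protein being made. MAP kinase signalling acts on serum response factor, which binds the CArG box, and on its ETS partners. It also acts on CREB and ATF factors, which bind the cyclic AMP response element and its TGACG core. The Fos and Jun products pair as the AP-1 transcription factor, and their transcripts are short-lived, in part through AU-rich elements in the 3′UTR. Tristetraprolin, the product of *Zfp36*, binds the core UAUUUAU of such elements and brings in the enzymes that remove the poly(A) tail. In endothelial cells the same genes respond to growth factors, shear stress and cytokines as well as to handling.

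The tristetraprolin core occurred in the annotated 3′UTR of 7 of the 10 members (70.0%), against 26.1% of 20123 genes with a 3′UTR of at least 50 bases. *Ier3* held 4 copies, *Zfp36* itself 3, *Fos* 2, and *Fosb*, *Jun*, *Jund* and *Atf3* 1 each. The UTRs of *Junb*, *Egr1* and *Ier2* held none. The members' 3′UTRs ran from 485 bases (*Junb*) to 2145 bases (*Fosb*), and the median over all these genes was 838. The sites are shown because *Zfp36*, whose product binds such elements, and 6 genes carrying the element are members of the same list. The first site of each transcript is given as RNA from 5′ to 3′, with the core in capitals and 8 flanking bases on each side.
Fos: uuucaauuUAUUUAUuaagaugg
Fosb: cccccagcUAUUUAUcccuuucc
Jun: cuugugcaUAUUUAUaauagcgu
Jund: uuccgcccUAUUUAUguuucuac
Ier3: cuaauuaaUAUUUAUguauuuau
Atf3: auauuacuUAUUUAUcccaguau
Zfp36: gggcccuuUAUUUAUgacgacuu

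The promoters of *Fos* and *Zfp36* are shown because both genes were abundant but differed in how much they varied between experiments. A RefSeq promoter (GRCm38.p6, from 250 bases before to 50 after the transcript's start) was held for 8 of the 10 members. Each was searched on both strands for the CArG box, TGACG, the AP-1 site TGANTCA, the EGR site GCGNGGGCG, the ETS core CCGGAA and TATAAA. The *Fos* window (chr12:85473640-85473939, plus strand) held TGACG at 129 to 125 and at 66 to 62 bases before the start and TATAAA at 33 to 28. The *Zfp36* window (chr7:28379179-28379478, minus strand) held an EGR site, an ETS core and, 58 to 49 bases before the start, a CArG box. The matches are in capitals and none overlaps another.
Fos: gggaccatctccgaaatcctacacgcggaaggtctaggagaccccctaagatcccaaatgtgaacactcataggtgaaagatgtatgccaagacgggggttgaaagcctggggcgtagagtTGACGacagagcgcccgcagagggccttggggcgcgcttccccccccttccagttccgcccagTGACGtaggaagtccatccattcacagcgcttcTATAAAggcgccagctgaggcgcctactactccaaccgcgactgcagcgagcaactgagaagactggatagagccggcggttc
Zfp36: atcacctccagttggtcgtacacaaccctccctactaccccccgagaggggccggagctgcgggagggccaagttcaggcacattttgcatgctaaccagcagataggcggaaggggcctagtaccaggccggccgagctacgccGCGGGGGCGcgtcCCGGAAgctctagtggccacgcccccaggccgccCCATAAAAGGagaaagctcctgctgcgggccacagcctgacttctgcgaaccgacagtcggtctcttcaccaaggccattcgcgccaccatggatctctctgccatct

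Among the 8 promoters TGACG was found in 4 (*Fos*, *Fosb*, *Junb* and *Atf3*), against 20.8% of all 32851 promoters. The EGR site was found in *Fosb* and *Zfp36* (5.55% of all promoters) and TATAAA in *Fos* and *Junb* (13.6%). The TATAAA of *Junb* ran from the transcript's start into the transcript, while that of *Fos* lay before the start. *Zfp36* alone of the 8 held the CArG box (1.63% of all) and the ETS core (14.9%), and none held the AP-1 site (7.81%). These matches describe letters in a 300-base window, and elements farther from the start were not searched.

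The members lay on 7 chromosomes of GRCm38 (mm10) in GENCODE M21. *Fos* was at chr12:85473890-85477273 on the plus strand with 4 exons, and *Fosb* at chr7:19302696-19310051 on the minus strand with 4 exons. *Jun* (chr4:95049034-95052222, minus), *Junb* (chr8:84974484-84978718, minus), *Jund* (chr8:70698949-70700616, plus) and *Ier2* (chr8:84661331-84662852, minus) had a single exon. *Egr1* was at chr18:34859823-34864984 (plus, 2 exons), *Ier3* at chr17:35821684-35822923 (plus, 2 exons), *Atf3* at chr1:191170296-191218039 (minus, 4 exons) and *Zfp36* at chr7:28376784-28380253 (minus, 2 exons). Single-exon genes were 4 of the 10 members, or 40.0%, against 7.0% of 21699 protein-coding genes. *Jun*, *Junb*, *Jund*, *Atf3* and *Zfp36* each overlapped a gene on the other strand. The use of strand in counting is not given in the sources used here, so reads of these 5 genes and of their partners may not be separated.

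The 6 libraries differed in depth along the treatment. AAV-CTRL libraries held 6530269 to 12399498 estimated counts and AAV-VEGF-C libraries 564475 to 3261935, so depth and treatment cannot be told apart. The LEC markers (*Prox1*, *Lyve1*, *Flt4* and 6 others) were detected in every library, with a summed level of 783 to 4189 scaled CPM, which are read counts relative to the library total after TMM scaling in edgeR. Fibroblast markers, which the sort should leave out, summed to 5939 to 21649 scaled CPM, with *Dcn* lower in AAV-VEGF-C (-1.69, edgeR adjusted p = 0.0287), mural markers to 382 to 1091 and blood endothelial markers to 330 to 2310. Schwann and neural markers summed to 30.9 to 56.2 in AAV-CTRL and 71.7 to 89.4 in AAV-VEGF-C, and *Sox10* and *Tubb3* of that list were called higher. Erythroid markers ranged from 0 to 123, and 1 of 5 was called between experiments, against 2.35% of all genes. The 2187 genes of the olfactory, vomeronasal and taste receptor, keratin-associated protein and defensin families, little expected in LECs, were higher in AAV-VEGF-C. They took 165 to 298 CPM of the raw total in AAV-CTRL, against 2996 to 7190 in AAV-VEGF-C. Whether such reads contributed to *Sox10*, *Tubb3* and other genes called higher was not tested. A single transcript, the predicted gene *Gm24270*, took 549 to 116428 TPM, a level corrected for transcript length and library total, in AAV-CTRL and 131538 to 228592 TPM in AAV-VEGF-C. TPM shares out a fixed total, so TPM is used below to compare genes and scaled CPM to compare libraries.

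All 10 genes were detected in every library of dural LECs, and 9 of them averaged 90.5 to 1032 TPM over the 6 libraries while *Ier3* averaged 36.97 TPM. Together they reached 2749, 4362 and 4669 TPM in AAV-CTRL 1 to 3 and 482, 1773 and 1740 TPM in AAV-VEGF-C 1 to 3. The AAV-VEGF-C totals were lower without overlap, as were the TPM of 36.4% of all genes tested. As a share of all counts, the members took 0.933%, 1.35% and 1.17% in AAV-CTRL, against 0.427%, 0.935% and 0.816% in AAV-VEGF-C, where AAV-VEGF-C 2 lay just above AAV-CTRL 1.

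*Fos*, the inducible partner of Jun in AP-1, had the highest level of the 10 in every library. It stood at 1245, 1740 and 1765 TPM in AAV-CTRL and at 193, 624 and 621 TPM in AAV-VEGF-C. It ranked between 26th and 37th of all genes by TPM in the AAV-CTRL libraries and between 61st and 90th in AAV-VEGF-C. *Fos* alone made up 37.8% to 45.3% of the members' summed TPM in AAV-CTRL and 35.2% to 40.1% in AAV-VEGF-C. *Fosb*, its paralogue, stood at 344, 395 and 402 TPM in AAV-CTRL and at 67.0, 138 and 189 TPM in AAV-VEGF-C.

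Of the Jun proteins, which can pair with themselves or with Fos, *Jun* had the highest level at 351, 535 and 510 TPM in AAV-CTRL and 67.5, 223 and 264 TPM in AAV-VEGF-C. *Junb*, which often opposes Jun in growth control, stood at 172, 304 and 355 TPM in AAV-CTRL and at 37.1, 157 and 140 TPM in AAV-VEGF-C. *Jund*, the family member most cells express without stimulation, was lowest of the trio at 87.7, 136 and 197 TPM in AAV-CTRL and 15.1, 52.9 and 69.4 TPM in AAV-VEGF-C. The lowest value among these 5 members in any library was thus the 15.1 TPM of *Jund*. For each, all AAV-VEGF-C libraries lay below all AAV-CTRL libraries in TPM, as for 36.4% of all genes tested. In scaled CPM this held for *Fos*, *Fosb* and *Jund* but not for *Jun* and *Junb*.

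*Egr1*, a zinc finger transcription factor induced by growth factors and shear, stood at 275, 413 and 541 TPM in AAV-CTRL and at 50.5, 210 and 166 TPM in AAV-VEGF-C. *Atf3*, a stress-induced factor of the ATF/CREB family, stood at 86.5, 287 and 324 TPM in AAV-CTRL and at 21.4, 124 and 98.0 TPM in AAV-VEGF-C. The *Atf3* groups overlapped because AAV-CTRL 1 lay far below the other AAV-CTRL libraries. *Zfp36* had the same shape, with 101, 313 and 322 TPM in AAV-CTRL and 18.6, 157 and 106 TPM in AAV-VEGF-C. *Ier2*, a nuclear immediate early protein, stood at 68.7, 174 and 173 TPM in AAV-CTRL and at 9.53, 54.7 and 62.9 TPM in AAV-VEGF-C. *Ier3*, a small regulator of cell survival, had the lowest mean, with 17.5, 64.4 and 81.6 TPM in AAV-CTRL and 1.77, 33.04 and 23.5 TPM in AAV-VEGF-C. Its value in AAV-VEGF-C 1 rested on 5 estimated counts, or 8.86 CPM of the raw total with a 95% Wilson interval of 3.78 to 20.7 that covers counting error only.

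**Figure D1:**
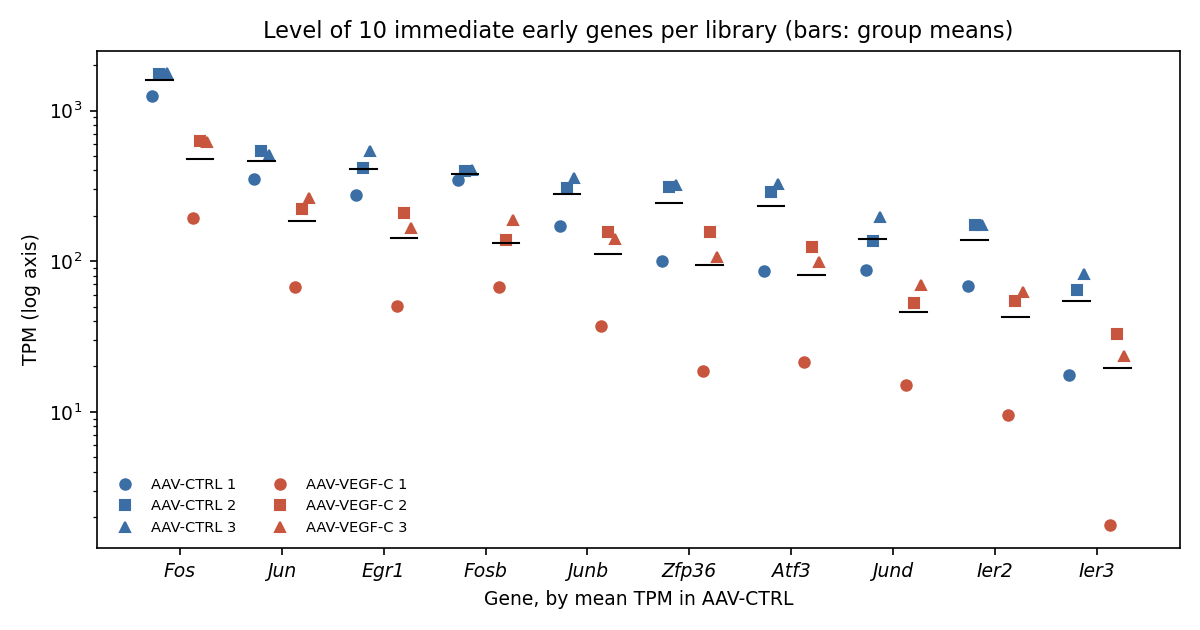
Level of each of the 10 immediate early genes in each library, in TPM on a log axis, with genes ordered by their mean in AAV-CTRL. Blue symbols are AAV-CTRL, red symbols AAV-VEGF-C, the symbol's shape is the experiment number, and black bars are group means. *Fos* is highest in all 6 libraries, and in TPM the circles of experiment 1 lie lowest in each group for all 10 genes. In scaled CPM, used to compare libraries, experiment 1 was not lowest in AAV-CTRL for *Fos*, *Fosb* and *Jun*.

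By mean TPM in AAV-CTRL the order was *Fos* (1584 ± 293, SD, n = 3), *Jun* (465 ± 99.7), *Egr1* (410.0 ± 133), *Fosb* (380.1 ± 31.3), *Junb* (277 ± 94.3), *Zfp36* (245 ± 125), *Atf3* (232 ± 128), *Jund* (140.2 ± 54.7), *Ier2* (139 ± 60.5) and *Ier3* (54.5 ± 33.2). Only the step from *Fos* to *Jun* separated neighbours whose AAV-CTRL ranges did not overlap. *Fos* exceeded *Jun*, and *Ier2* exceeded *Ier3*, in 6 of 6 libraries. *Egr1* exceeded *Fosb* in 3 of 6, so their order was not resolved. The remaining neighbours kept their order in 4 or 5 libraries.

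No member passed the test between AAV-VEGF-C and AAV-CTRL. In the quasi-likelihood test of edgeR, adjusted by Benjamini-Hochberg over all genes and called at 0.05, 0 of 10 were lower, against 0.659% of all genes, and 0 of 10 were higher, against 10.5%. At an unadjusted p under 0.05, edgeR also gave 0 of 10 lower, against 9.11% of all genes, and DESeq2 gave 2 lower, against 8.08%. With adjustment DESeq2 gave 0 lower, against 2.38%, and 0 higher, against 15.8%. With so few genes called lower, 0 of 10 lies near the background. The libraries of a group came from separate experiments on pooled mice, and the p-values measure the spread between them.

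All 10 estimates were below 0, with a median log2 fold change of -0.50, while *Jun* (0.04) and *Junb* (0.12) turned positive when scaling used the 2000 most abundant genes, *Junb* also with counts thinned to equal depth (0.11) or only genes of 5 TPM or more (0.0050). The median was -0.96 without AAV-VEGF-C 2 and -0.11 with all libraries thinned to the depth of the shallowest. Other expressed genes were also below 0 in the median. The median over 7234 genes averaging 5 TPM or more was -0.41, and 76.0% of those were below 0, and over the 702 of them averaging 50 TPM or more it was -0.45, with 62.1% below 0. The median over all genes tested was -0.0037. Scaling on the 2000 most abundant genes moved these medians to -0.070 for the members, 0.046 for genes averaging 5 TPM or more and 0.45 for all genes. Leaving out a library could put the members' median on either side of the median of genes averaging 5 TPM or more, with -0.96 against -0.61 without AAV-VEGF-C 2 and -0.34 against -0.45 without AAV-CTRL 2.

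*Fos* had 2566, 3197 and 2194 scaled CPM in AAV-CTRL, against 1463, 1831 and 1534 in AAV-VEGF-C, and the groups did not overlap. The means were 2652 ± 507 and 1609 ± 195 (SD, n = 3 each), and the log2 fold change was -0.72 ± 0.38 (SE, edgeR adjusted p = 0.262). Its within-experiment log2 ratios of -0.81, -0.80 and -0.52 had 1 sign in all experiments. *Fosb* behaved alike, with 1404, 1339 and 1077 scaled CPM against 795, 841 and 924, and a log2 fold change of -0.58 ± 0.32 (edgeR adjusted p = 0.285). *Jund* was the third member without overlap, with 377, 488 and 377 scaled CPM against 199, 332 and 350.5 (-0.49 ± 0.33, edgeR adjusted p = 0.366). Non-overlapping and lower groups in scaled CPM were found for these 3 of 10 members and for 17.6% of all genes tested.

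In the other 7 members the groups overlapped in scaled CPM. *Jun* had 2146, 2832 and 1837 scaled CPM against 1232, 1999 and 1871, and its ratio within experiment 3 was 0.026 on the log2 scale. *Egr1* had 1714, 2211 and 1908 against 952, 1871 and 1207, and *Junb* had 655, 986 and 797 against 434, 879 and 630.3. In each of the trio AAV-VEGF-C 1 was the lowest library and AAV-VEGF-C 2 lay within the control range. Their log2 fold changes were -0.42 ± 0.41 for *Jun*, -0.53 ± 0.40 for *Egr1* and -0.33 ± 0.37 for *Junb*, with edgeR adjusted p from 0.430 to 0.618.

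*Ier2* had the most negative estimate of the 10, at -0.77 ± 0.46 (edgeR adjusted p = 0.311), from 215, 463 and 308 scaled CPM in AAV-CTRL, against 92.4, 252 and 230 in AAV-VEGF-C. *Atf3* (-0.52 ± 0.54), *Zfp36* (-0.43 ± 0.57) and *Ier3* (-0.47 ± 0.68) had the largest errors, with edgeR adjusted p from 0.574 to 0.696. With the experiment number as a block, the error of *Ier2* fell to 0.29 and that of *Ier3* to 0.33, since both groups were low in experiment 1. The blocked estimates were -0.82 for *Ier2* (edgeR adjusted p = 0.0923) and -0.69 for *Ier3* (edgeR adjusted p = 0.184). Still 0 of 10 members were called, against 2.07% of all genes lower and 12.8% higher in the blocked fit.

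**Figure D2:**
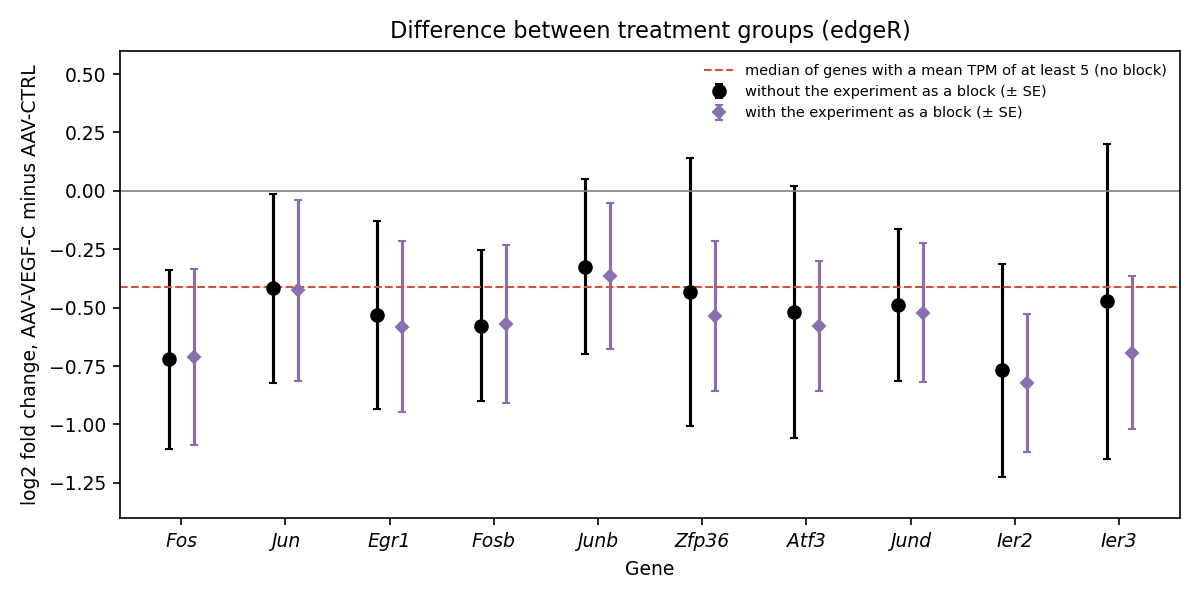
Log2 fold change of each member, AAV-VEGF-C minus AAV-CTRL, from edgeR without (black circles) and with (purple diamonds) the experiment as a block, with bars of ± 1 SE from 3 libraries per group. The dashed line is the median of genes averaging 5 TPM or more (-0.41). All 10 estimates lie below 0, the black circles within 1 SE of the dashed line, and the bars of *Zfp36*, *Atf3*, *Ier2* and *Ier3* shorten with the block.

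The composition of the set differed little between the groups. Of the 10 shares of the members' summed TPM, only that of *Junb* did not overlap, at 6.26%, 6.98% and 7.60% in AAV-CTRL, against 7.71%, 8.83% and 8.05% in AAV-VEGF-C. The gap between the nearest libraries was small. *Zfp36* took 3.66%, 7.16% and 6.89% against 3.85%, 8.86% and 6.10%, low in experiment 1 in both groups.

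The members separated by how much they varied among libraries of 1 group. *Fosb* and *Fos* had within-group SDs of 0.16 and 0.23 on the log2 scaled CPM scale, smaller than those of most genes. Only 5.41% and 13.5% of genes averaging 5 TPM or more had a smaller SD than these. *Jun* (0.35), *Jund* (0.35), *Egr1* (0.37) and *Junb* (0.42) lay below the median gene (0.45). *Ier2* (0.69), *Atf3* (0.85), *Zfp36* (0.87) and *Ier3* (1.29) lay above it, and 88.8% of genes had a smaller SD than *Ier3*.

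In *Ier3*, *Atf3* and *Zfp36* the variation followed the experiment number. *Ier3* had 36.3, 114.5 and 90.7 scaled CPM in AAV-CTRL 1 to 3 and 11.6, 101 and 56.1 in AAV-VEGF-C 1 to 3. *Atf3* had 175, 495 and 375 in AAV-CTRL, against 106, 379 and 240.4 in AAV-VEGF-C. *Zfp36* had 498, 1349 and 900.1 in AAV-CTRL, against 284, 1134 and 612.5 in AAV-VEGF-C. In each of these genes experiment 1 was lowest, experiment 3 intermediate and experiment 2 highest, in both groups. *Ier2*, *Egr1* and *Junb* kept that order in both groups as well. *Fos*, *Fosb*, *Jun* and *Jund* did not keep the same order of experiments in both groups.

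Against the mean of experiments 2 and 3, experiment 1 was lower in *Ier3* by a log2 ratio of -1.48 in AAV-CTRL, against -2.67 in AAV-VEGF-C. The ratios were -1.30 and -1.50 for *Atf3*, -1.15 and -1.55 for *Zfp36*, and -0.81 and -1.38 for *Ier2*. *Fos* had -0.046 and -0.20, and *Fosb* 0.23 and -0.15, around the medians of genes averaging 5 TPM or more (0.025 and -0.25). The other AP-1 genes and *Egr1* lay between, with means over the groups of -0.37 (*Jun*), -0.46 (*Egr1*), -0.48 (*Jund*) and -0.61 (*Junb*). A ratio more negative than that of *Ier3* was found for 5.83% of genes averaging 5 TPM or more, and than that of *Fos* for 49.2%.

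**Figure D3:**
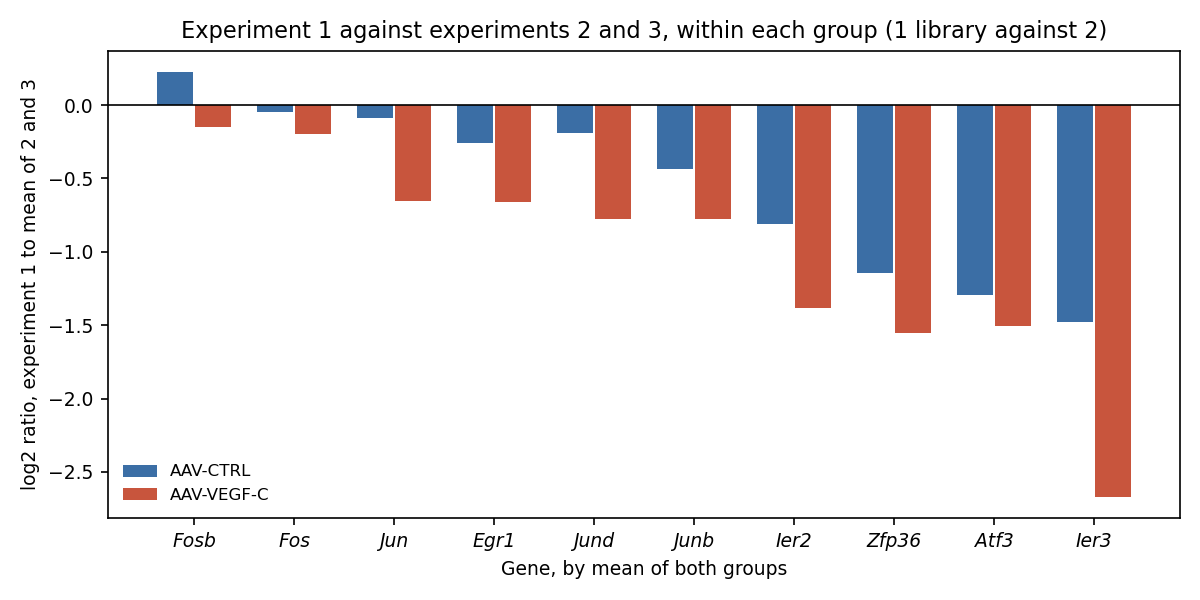
Log2 ratio of scaled CPM in experiment 1 to the mean of experiments 2 and 3 within AAV-CTRL (blue) and AAV-VEGF-C (red) for each member, 1 library against 2 per bar and therefore with no error bar. *Fosb* and *Fos* stay near 0, and *Ier2*, *Zfp36*, *Atf3* and *Ier3* fall to mean ratios from -1.09 to -2.07.

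In edgeR's test of the experiment terms beside treatment, 0 of 10 members passed after adjustment, against 2.35% of all genes, and 4 had an unadjusted p under 0.05, against 11.3%. These were *Ier3* (edgeR adjusted p = 0.0726), *Atf3* (0.103), *Zfp36* (0.156) and *Ier2* (0.306). DESeq2 called 3 of 10, against 4.78% of all genes, with adjusted p of 0.00587 for *Ier3*, 0.00227 for *Atf3* and 0.000817 for *Zfp36*. edgeR adjusted p for the other 6 members lay between 0.712 (*Junb*) and 0.998 (*Fosb*). Without AAV-VEGF-C 3 edgeR called 3 members and 7.37% of all genes, and without AAV-CTRL 3 it called 1 member and 5.64% of all genes. The call thus depended on the tool and on these libraries. Leaving out experiment 1 in both groups left 0 members at an unadjusted p under 0.05 in edgeR, against 1386 of 19222 genes. That setting compares experiments 2 and 3 alone on few libraries, so it cannot tell whether experiment 1 carried the difference.

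Most leukocyte markers moved with the experiment number as well. The 9 markers (*Ptprc*, *Cd68*, *Csf1r*, *Mrc1*, *Lyz2*, *Cd3e*, *Cd79a*, *S100a8* and *S100a9*) summed to 107, 4967 and 2082 scaled CPM in AAV-CTRL, against 120.2, 3953 and 1833 in AAV-VEGF-C, although the sort took CD45- cells. *Ptprc*, which encodes CD45, had 0.803, 143 and 87.1 scaled CPM in AAV-CTRL, against 2.31, 127 and 70.5 in AAV-VEGF-C. *Cd3e*, *S100a8* and *S100a9* were at 0 in AAV-CTRL 1, *Cd3e* in AAV-CTRL 3, and *S100a8* and *S100a9* in AAV-VEGF-C 1 and 2. Of 8 markers tested, 5 differed between experiments, against 2.35% of all genes. They were *Ptprc*, *Cd68*, *Csf1r*, *Mrc1* and *Lyz2*, with edgeR adjusted p of 0.00171 to 0.00274. The B cell marker *Cd79a* went the other way, at 2.41, 0.382 and 0.677 scaled CPM in AAV-CTRL, against 11.6, 2.87 and 2.88 in AAV-VEGF-C, on 3 to 15 counts a library. *Cd3e*, on 0 to 11 counts, was highest in AAV-VEGF-C 1. Of 9 tested LEC markers 2, *Prox1* and *Reln*, also differed between experiments, against the same 2.35% of all genes. The sum of the LEC list was highest in experiment 1 of each group, at 2574 and 4189 scaled CPM. The order of libraries by *Zfp36* was that by the leukocyte sum, except that AAV-CTRL 1 and AAV-VEGF-C 1 changed places. The housekeeping gene *Actb* had the same order of libraries as *Zfp36*, and the share of all genes with that order was not counted. The part of leukocytes in the levels of *Zfp36*, *Atf3*, *Ier3* and *Ier2* was not tested, and in bulk RNA fewer cells of a type and less RNA per cell cannot be told apart.

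**Figure D4:**
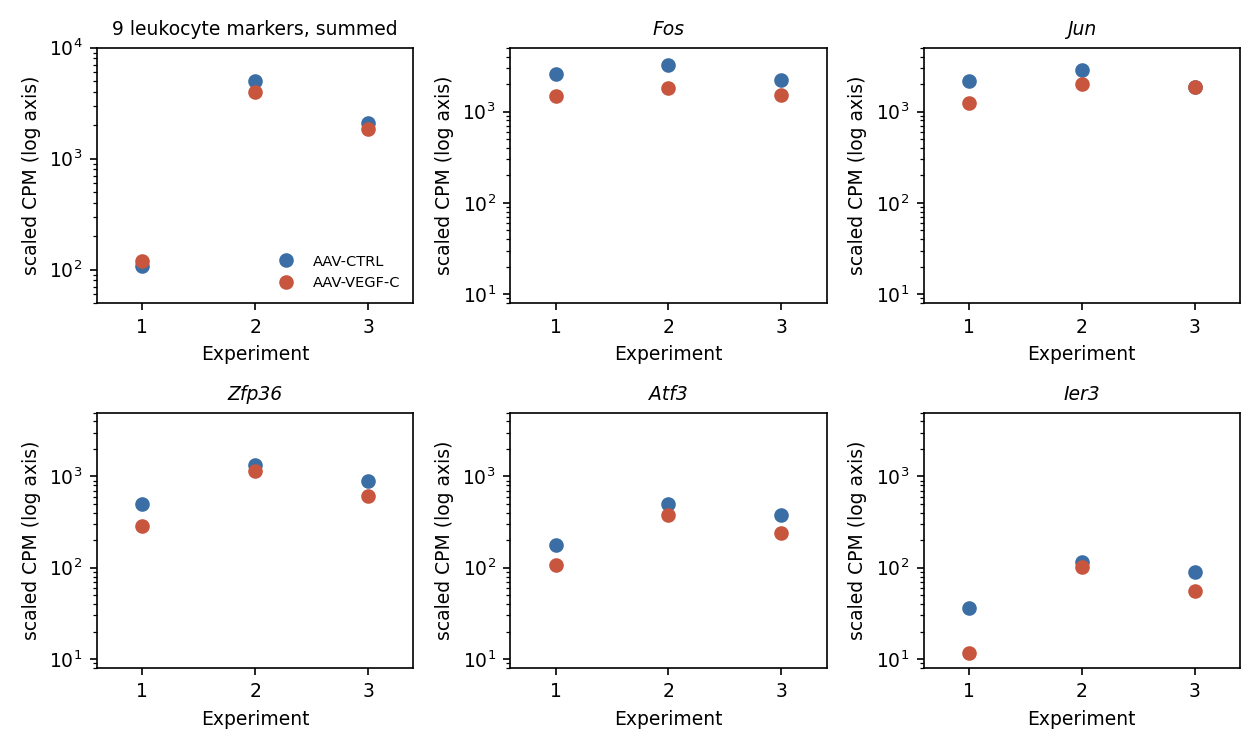
Scaled CPM on log axes by experiment number, for the sum of 9 leukocyte markers and for *Fos*, *Jun*, *Zfp36*, *Atf3* and *Ier3*, with 1 point per library (blue AAV-CTRL, red AAV-VEGF-C). The 5 gene panels share 1 axis range and the marker panel has its own. The marker sum rises from 107 and 120.2 in experiment 1 to 4967 and 3953 in experiment 2, *Zfp36*, *Atf3* and *Ier3* are also lowest in experiment 1, and *Fos* spans 1463 to 3197.

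Of 51 other immediate early genes listed, 50 were tested, and their median log2 fold change was -0.34. With AAV-VEGF-C 1 rose, against 10.5% of all genes, and 2 fell, against 0.659%. With the experiment as a block the counts were 1, against 12.8% of all genes, and 5, against 2.07%. *Sgk1*, a kinase induced by serum and glucocorticoids, fell by 1.20 ± 0.26 on the log2 scale (edgeR adjusted p = 0.0267), from 90.6, 114.4 and 100.3 scaled CPM to 43.9, 40.1 and 48.6. *Errfi1*, a feedback inhibitor of EGF receptor signalling, fell by 1.21 ± 0.31 (edgeR adjusted p = 0.0441), from 333, 256 and 183 to 104, 108 and 121. Neither gene's groups overlapped in scaled CPM, with AAV-VEGF-C lower, as for 17.6% of all genes tested. In the blocked fit *Ptgs2* (-1.17), *Cebpd* (-1.09) and *Klf10* (-1.07) passed as well, with edgeR adjusted p of 0.0320 to 0.0435. *Npas4*, a neuronal activity-regulated factor, was called higher, but on 2, 4 and 1 counts against 2, 6 and 21. The most abundant genes of the list did not pass, among them the MAP kinase phosphatase *Dusp1* (-0.29, edgeR adjusted p = 0.730), the nuclear receptor *Nr4a1* (-0.49, 0.468), the matricellular *Ccn1* (-0.94, 0.248) and the stress-response phosphatase subunit *Ppp1r15a* (-0.45, 0.374).

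Leaving out 1 library could end these calls. Without AAV-CTRL 2, AAV-CTRL 3, AAV-VEGF-C 2 or AAV-VEGF-C 3, 0 of the 51 listed genes were called in either direction in edgeR, while 7 to 9 were lower at an unadjusted p under 0.05. Calls over all genes fell likewise, from 1835 higher and 115 lower to 0 in each direction without AAV-CTRL 2 or AAV-CTRL 3, to 8 and 0 without AAV-VEGF-C 2, and to 320 and 8 without AAV-VEGF-C 3. Of the 50 tested genes of the same list, 3 were called between experiments in edgeR, against 2.35% of all genes. They were the NF-κB targets *Tnfaip3*, *Cxcl2* and *Ccl2*. *Tnfaip3*, which ends NF-κB signalling, had 12.5, 364 and 134 scaled CPM in AAV-CTRL, against 25.4, 236 and 126 in AAV-VEGF-C (edgeR adjusted p = 0.00596). *Ccl2*, a monocyte chemokine, went from 4.50 and 4.62 scaled CPM in experiment 1 to 236 and 158 in experiment 2 (edgeR adjusted p = 0.00206). The neutrophil chemokine *Cxcl2* had 0.803, 88.3 and 34.9 scaled CPM in AAV-CTRL, against 0, 128 and 42.8 in AAV-VEGF-C. These 3 genes thus shared the order of the experiments with *Ier3*, *Atf3*, *Zfp36*, *Ier2*, *Egr1*, *Junb* and the leukocyte sum.

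None of the genes around the members in their pathway passed the test between treatments in edgeR or DESeq2. Among 17 tested partners of the basic leucine zipper family, 0 were called in edgeR, also at an unadjusted p under 0.05, and the median log2 fold change was -0.09. *Atf4*, the factor of the integrated stress response, had -0.56 (edgeR adjusted p = 0.214) and *Fosl2*, a late Fos family member, -0.09 (0.942). Among 21 genes of the signalling input, including MAP kinases, ETS factors and *Crebbp*, 0 were called, with a median of -0.35. At an unadjusted p under 0.05 in edgeR 2 were lower, against 9.11% of all genes. *Mapk3*, which encodes ERK1, had -0.85 (edgeR adjusted p = 0.110). Among 14 genes of AU-rich RNA decay 0 were called and 1 was lower at that unadjusted threshold, against the same 9.11%. Their median was -0.26, and the *Zfp36* paralogue *Zfp36l1* had -0.29 (edgeR adjusted p = 0.632).

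Heat shock genes, which also respond to handling, had a median of -0.70 over 11 genes, with 0 called in edgeR. At an unadjusted p under 0.05 edgeR gave 4 lower, against 9.11% of all genes. DESeq2 called 2 of the 11 lower, *Hsp90aa1* and *Hspa8*, against 2.38% of all genes. *Hsp90aa1*, the inducible cytosolic HSP90, had -0.99 (edgeR adjusted p = 0.0579) and was called in the blocked fit (0.0494). *Hspa1a*, the inducible HSP70, had 0.019 (edgeR adjusted p = 0.988), although it has a near-identical neighbour and its counts are uncertain. The 16 housekeeping genes had a median of -0.68, with 0 called in edgeR and 6 lower at an unadjusted p under 0.05, against 9.11% of all genes. With the block 2 were called lower, against 2.07% of all genes, and DESeq2 called 3 lower, against 2.38%. The members' median of -0.50 was thus no more negative than that of the housekeeping list.

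The genes whose profile over the 6 libraries lay nearest the members' mean profile were the actin-capping *Capzb*, the NF-κB subunit *Rela*, *Nr4a1*, *Rtf2* and *Actb*. Their root mean square differences in centred log2 scaled CPM were 0.058 to 0.082, among 7224 candidates averaging 5 TPM or more. The members' own differences from that mean ran from 0.16 (*Junb*) to 0.65 (*Ier3*). The nearest genes were picked for the smallest difference and the members were not, so no conclusion is drawn from the gap between them.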

How the data were processed

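Sorted dural LECs of 3 AAV-CTRL and 3 AAV-VEGF-C pools were sequenced by the authors from stranded total RNA libraries. The submitters' processing notes name FastQC, Trimmomatic, DRAGEN, Picard and mm10. The counting program, its use of strand and any use of molecular identifiers are not given in the sources used here. The deposited tables, made by the authors, hold estimated counts without scaling of the libraries, and TPM. Every row named a gene.

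Groups came from the labels. Counts were rounded to whole numbers, filtered by filterByExpr, scaled by TMM and tested with edgeR 4.0.16 (R 4.3.3) across 17459 genes, with Benjamini-Hochberg adjustment at 0.05. The SE of a log2 fold change is its size divided by the square root of F. Experiments were compared by the F-test of both experiment terms beside treatment. The method was tested on simulated counts with the real library sizes. All genes were given the same dispersion, and only the changed genes differed in proportion between libraries. Differences in composition between the groups, as in these libraries, were thus not simulated. DESeq2, the method of the study, was run here in version 1.42.0 as an alternative, and limma 3.58.1 on log2(TPM + 1) and log2(TPM + 0.1) as another. Further alternatives were other scalings and filters, the replicate block, leaving out each library and drawing all counts down to the smallest total. Totals of 564475 to 12399498 counts limit the AAV-VEGF-C libraries most. Of the gene identifiers, 98.1% matched GENCODE M21 with their version.

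After subtraction of group means, libraries with the same number correlated over genes at 0.37, 0.28 and 0.15, and the labels tie the numbers to repeats of the experiment, so the numbers were taken to pair the libraries. The members, gene lists and tests were chosen with earlier results of these data known. Named genes are the members, up to 3 called genes in each direction and the 4 genes with the highest mean TPM of each list, and the 5 nearest profiles. Genes called only with the block or between experiments were named after their values were seen.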

Additional observations from a re-analysis of the deposited data

How the results depend on the processing

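Members called between treatments stayed at 0 in each direction under every alternative run, and their adjusted p ran from 0.0780 to 0.998. The members' median log2 fold change (-0.50) was -0.070 with scaling on the 2000 most abundant genes, -0.73 without a filter, -0.19 among genes averaging 5 TPM or more, -0.11 with drawn-down counts, and -1.68 and -1.69 with limma on log2(TPM + 1) and log2(TPM + 0.1). Leaving out a library gave -0.96 (without AAV-VEGF-C 2) to -0.32 (without AAV-VEGF-C 1). *Jun* turned to 0.040 and *Junb* to 0.12 with scaling on the 2000 most abundant genes, and *Junb* to 0.0050 among genes averaging 5 TPM or more and 0.11 with drawn-down counts. The median of all genes moved to 1.88 with no filter, and to -0.72 and -1.04 in limma. Members differing between experiments (0) became 3 with no filter or DESeq2 and 1 with limma on log2(TPM + 1), and 0 to 3 without a library, 1 without AAV-CTRL 3 and 3 without AAV-VEGF-C 3. Other immediate early genes called higher (1) became 2 with scaling on the 2000 most abundant genes or DESeq2, and 0 among genes averaging 5 TPM or more, limma or drawn-down counts. Those called lower (2) became 0 with scaling on the 2000 most abundant genes, with genes averaging 5 TPM or more or with drawn-down counts (2, 3 and 2 at an unadjusted p under 0.05), 8 with no filter, 4 with DESeq2 and 5 with the replicate block. Leaving out a library gave 0 to 1 higher and 0 to 2 lower. Without experiment 1 in both groups, a setting chosen after seeing the data, 4 were lower. The block changed no call of a member. With 3 libraries per group, an exact permutation test could not go below 0.1. The causes were not tested.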
